A study of Mus musculus with 6 samples.

Results

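The genes described here make cholesterol and fatty acids or control that supply: 34 genes, chosen by symbol from a list of sterol synthesis enzymes, fatty acid synthesis enzymes, regulators of sterol regulatory element binding proteins (SREBPs) and genes of the liver X receptor (LXR) efflux route. All 34 were found among the 22984 genes of the deposited table, and all 34 passed the filter on low values. RNA was sequenced from mesenchymal stem cells of mouse bone marrow, progenitors of its stroma, in 3 libraries of genotype Grx2-/- and 3 of genotype Grx2+/+. Grx2 is glutaredoxin 2, a mitochondrial thiol-disulfide oxidoreductase encoded by Glrx2. The design text calls the cells O-BMSCs (bone marrow mesenchymal stem cells) without expanding the prefix. How the allele was made, the age and sex of the animals, passage, medium and the origin of the replicates (other animals, other cultures) are not stated in the labels, so a p-value here speaks to the spread among libraries, which may be technical.

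Cholesterol is built from acetyl-CoA through mevalonate, isoprenoid diphosphates, squalene and lanosterol. When sterols in the endoplasmic reticulum run low, SCAP carries SREBPs to the Golgi apparatus for cleavage, and the freed factors switch on the synthesis genes, while INSIG proteins hold SCAP back when sterols are plentiful. SREBP-2, from Srebf2, acts mainly on sterol genes and the SREBP-1c form from Srebf1 mainly on fatty acid genes. LXRs are nuclear receptors that sense oxysterols and switch on cholesterol efflux, and they also raise Srebf1 and fatty acid synthesis. Bone marrow stromal cells can become osteoblasts or adipocytes, and fatty acid synthesis is prominent in adipocytes.

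The values are FPKM, reads scaled to gene length and library depth, as deposited. Depth worked back from the values was 41011482 to 41794919 reads per library in knockout cells and 40797879 to 41435761 in wild type cells. Knockout replicate 1 and wild type replicate 2 stood somewhat apart: their root mean square log2 differences over tested genes were up to 0.188 and 0.189 within their groups, against 0.102 and 0.111 between the other libraries of each group. Glrx2 had 1 read in knockout replicate 1 and 0 in replicates 2 and 3, against 756, 800 and 761 reads in wild type replicates 1 to 3. Of the 12 listed stromal markers, all were tested: 6 were higher, 5 lower and 1 was not called in knockout libraries. The most abundant, Itgb1 and Ly6a, averaged 309 ± 8.35 and 362 ± 20.6 FPKM in knockout, against 457 ± 5.41 and 57.5 ± 18.8 FPKM in wild type (SD, n = 3). Knockout libraries had more macrophage marker RNA, with 12 of 14 markers higher and 0 lower, against 42.7% and 24.6% of all tested genes. The macrophage marker sum in knockout libraries was 2745 to 3719 FPKM, against 1633 to 1768 FPKM in wild type libraries. Knockout libraries had less neutrophil RNA (6.02 to 8.13 FPKM, against 923 to 2675 FPKM), less endothelial RNA (0.964 to 1.11 FPKM, against 19.4 to 23.1 FPKM) and less osteoblast RNA (2627 to 3031 FPKM, against 5021 to 5392 FPKM). Ly6g, Retnlg, Tie1, Cldn5, Hba-a1 and Hbb-bs were listed at 0 in every knockout library, and none of the macrophage markers was. Erythroid markers, none of which reached 1 FPKM, summed to at most 0.0133 FPKM in knockout libraries and 0.379 FPKM in wild type. Fewer cells of a type and less RNA per cell cannot be told apart in such bulk samples.

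Calls in these genes went in both directions, as they did over all tested genes. From squalene to cholesterol 6 of 11 genes were higher in knockout cells, against 42.7% of all tested genes. Srebf2, Scap, LXR beta and the efflux gene Abca1 were also higher. The fatty acid genes Scd2 and Fasn, the sterol isomerase Ebp, LXR alpha and the efflux gene Abcg1 were lower. Of the 34 genes, 13 rose and 8 fell and 13 were not called by limma on log2(FPKM + 1) (two-sided, Benjamini-Hochberg adjusted p under 0.05 over 11083 genes). The 21 called are 61.8% of the set, against 67.4% of all tested genes called in either direction, 42.7% higher and 24.6% lower, so the share is near the background. The groups did not overlap for 21 of the 34, 13 with knockout higher and 8 with knockout lower, against 73.1% of all tested genes, 45.7% and 27.4%. The median log2 fold change was 0.037 over the 34 genes and 0.085 over all tested genes, and the median size of change was 0.23 and 0.24. Scd2 alone among them passed 2-fold, which 10% of all tested genes did, 6.49% higher and 3.54% lower. Without knockout replicate 1 and wild type replicate 2, 15 genes were higher and 6 lower of 33 tested. The split of higher to lower calls moved with scaling: it was 10 higher and 8 lower with median-of-ratios scaling and 9 higher and 12 lower with quantile normalization, which lowered the median of all tested genes by 0.11. For all genes 63.5% of calls were higher, 51.5% with median-of-ratios scaling and 46.4% with quantile normalization.

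**Figure D1:**
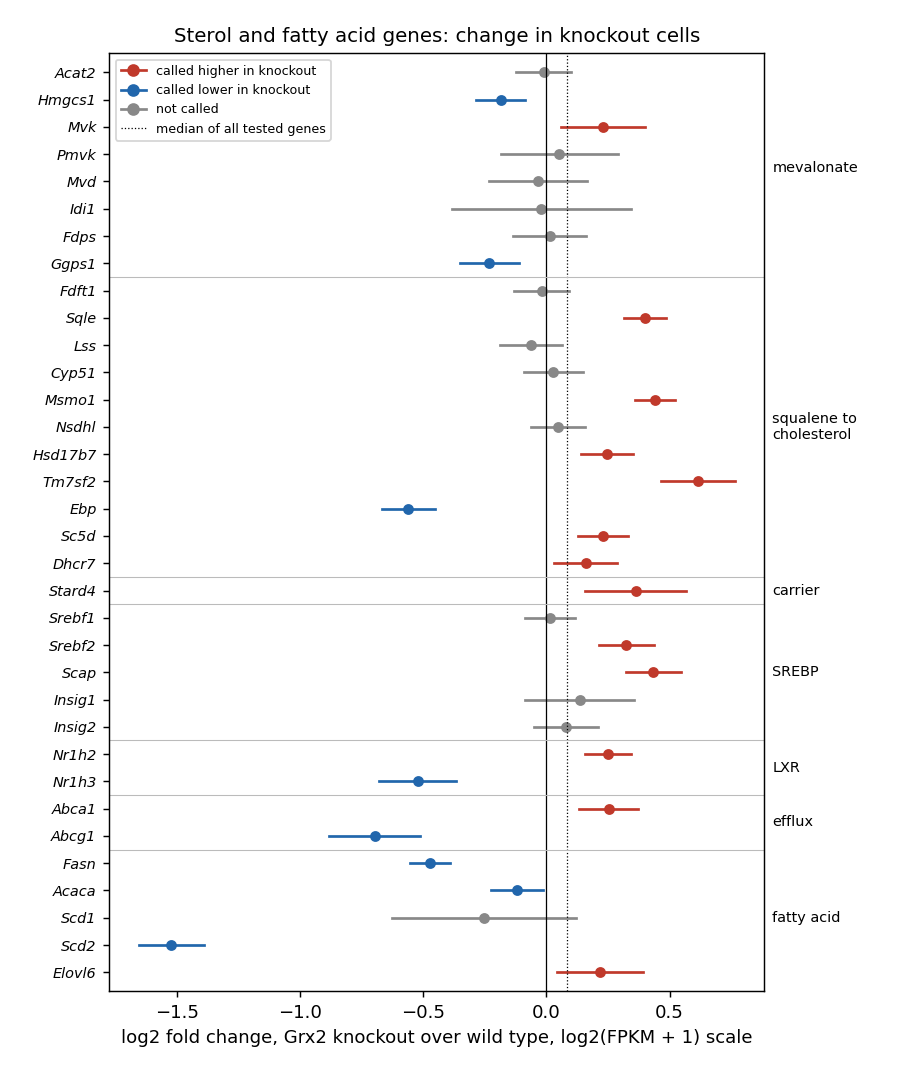
Log2 fold change of each of the 34 genes (x axis, log2(FPKM + 1) scale, positive where knockout is higher), with points for limma estimates and bars for 95% intervals, in pathway order (y axis) and a dotted line at the median of all tested genes, 0.085. Scd2 stands at -1.52, and the genes from Sqle to Dhcr7 hold 6 higher calls and 1 lower call.

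The first segment leads to mevalonate and the isoprenoid diphosphates. Among its 8 genes 1 rose, 2 fell and 5 were not called, with a median log2 fold change of -0.016. The calls are 37.5% of the segment, against 67.4% of all tested genes. Higher and lower calls numbered 0 and 2 after median-of-ratios scaling and 0 and 3 after quantile normalization. Hmgcs1, the cytosolic HMG-CoA synthase and a classical SREBP-2 target, had 26.2, 28.8 and 27.4 FPKM in knockout replicates 1 to 3, against 31.1, 32.1 and 31.0 FPKM in wild type. Every knockout library lay below every wild type library, and the gene fell by 0.19 ± 0.043 on the log2 scale (SE, limma adjusted p = 0.00509). An antisense gene on the opposite strand, Gm48342, covers 12.1% of its exonic bases. Ggps1, which makes geranylgeranyl diphosphate for protein prenylation, had 4.39, 4.16 and 4.34 FPKM in knockout libraries and 5.03, 5.14 and 5.50 FPKM in wild type libraries. It was lower in all knockout libraries (-0.23 ± 0.052, limma adjusted p = 0.00446).

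Mvk, mevalonate kinase, was the member of this segment that rose, with 11.3, 12.9 and 13.2 FPKM in knockout and 10.6, 11.2 and 9.55 FPKM in wild type libraries. Knockout replicate 1 lay just above wild type replicate 2, and the call (0.23 ± 0.074, limma adjusted p = 0.0241) was lost without knockout replicate 2 or 3 or wild type replicate 3 (limma adjusted p = 0.069, 0.0887 and 0.0876). The Mvk call was also lost with median-of-ratios scaling (0.15, limma adjusted p = 0.106), quantile normalization (0.11, limma adjusted p = 0.206) and no filter (limma adjusted p = 0.0658). Fdps, farnesyl diphosphate synthase, the most abundant enzyme of the segment, averaged 49.9 ± 4.26 FPKM in knockout and 49.3 ± 2.21 FPKM in wild type (SD, n = 3), a log2 difference of 0.014 with a 95% interval of -0.13 to 0.16. Idi1, isopentenyl diphosphate isomerase, varied most among knockout libraries, with 4.173, 7.4999 and 6.072 FPKM, against 5.5999, 5.926 and 6.094 FPKM in wild type. Its lowest and highest values were both in knockout libraries. The thiolase Acat2, phosphomevalonate kinase Pmvk and the decarboxylase Mvd had log2 differences of -0.012, 0.052 and -0.036, and their groups overlapped.

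From squalene to cholesterol 6 of 11 genes rose, 1 fell and 4 were not called, with a median log2 fold change of 0.16. The calls are 63.6% of the segment, against 67.4% of all tested genes. Higher and lower calls here numbered 5 and 1 after median-of-ratios scaling and 4 and 3 after quantile normalization, where Fdft1 and Lss passed as lower. Their summed level was 155, 163 and 159 FPKM in knockout replicates 1 to 3, against 146, 140.2 and 143 FPKM in wild type. The mevalonate segment summed to 111, 128 and 124 FPKM in knockout libraries and to 125, 123 and 122 FPKM in wild type libraries, with overlapping groups. Fdft1, squalene synthase, which commits farnesyl diphosphate to sterols, had 4.42, 4.78 and 4.53 FPKM in knockout libraries and 4.67, 4.68 and 4.61 FPKM in wild type, and was not called. Sqle, squalene epoxidase, a rate-limiting oxygenase, had 33.5, 35.1 and 35.8 FPKM in knockout, against 26.4, 26.2 and 25.7 FPKM in wild type. It was 1.33-fold higher, with every knockout library above every wild type library (0.40 ± 0.037, limma adjusted p = 3.14e-05).

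Lss and Cyp51, which form lanosterol and take off its first methyl group, were not called, with log2 differences of -0.062 (95% interval -0.19 to 0.064) and 0.028 (-0.092 to 0.15). Msmo1, the oxidase that starts removal of the next methyl groups, had 38.0, 38.2 and 38.3 FPKM in knockout and 28.7, 26.9 and 27.99 FPKM in wild type libraries. Its knockout libraries were nearly level with each other and 1.37-fold above wild type (0.44 ± 0.035, limma adjusted p = 1.30e-05). Of its partners in demethylation, Nsdhl, the decarboxylating dehydrogenase, was not called (0.047 ± 0.048), and Hsd17b7, the ketone reductase, rose by 0.25 ± 0.045 (limma adjusted p = 0.00171), with 8.11, 8.01 and 7.69 FPKM in knockout and 6.36, 6.72 and 6.54 FPKM in wild type libraries. Tm7sf2, a sterol reductase, showed the largest rise of the 34 genes on this scale, from a low level. It had 3.67, 3.63 and 3.30 FPKM in knockout libraries and 1.97, 2.12 and 1.79 FPKM in wild type libraries, 1.80-fold higher (0.61 ± 0.065, limma adjusted p = 6.77e-05). Vps51 overlaps 12.1% of its exonic bases on the same strand.

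Ebp, the isomerase that shifts the ring double bond of cholesterol precursors, moved the other way. It had 16.9, 18.8 and 17.6 FPKM in knockout libraries, against 27.5, 25.9 and 26.7 FPKM in wild type. Its mean fell by 33.4% without overlap (-0.56 ± 0.047, limma adjusted p = 1.82e-05). Within libraries the ratio of Msmo1 to Ebp was 2.25, 2.03 and 2.17 in knockout and 1.04, 1.04 and 1.05 in wild type, and that of Tm7sf2 to Ebp was 0.217, 0.193 and 0.187 in knockout and 0.0716, 0.0817 and 0.0673 in wild type. These are among 8 ratios compared, each per length. Both gave an exact two-sided permutation p = 0.1 (adjusted p = 0.114 over the 8), the smallest that 3 against 3 libraries allow being 0.1. Msmo1 and Tm7sf2 lay higher and Ebp lower in every knockout library. Both outcomes were thus fixed by the single genes and add no support. Sc5d, the desaturase after Ebp, had 8.34, 8.35 and 8.24 FPKM in knockout and 7.10, 6.70 and 7.02 FPKM in wild type libraries (0.23 ± 0.043, limma adjusted p = 0.00187). Its call was lost with quantile normalization (0.11, limma adjusted p = 0.071). Dhcr7, the last reductase of its branch, averaged 4.87 ± 0.26 FPKM in knockout and 4.26 ± 0.155 FPKM in wild type (SD, n = 3). It passed in the fit of all libraries (0.16 ± 0.055, limma adjusted p = 0.0317) but not without knockout replicate 2 or 3 or any of the wild type replicates (limma adjusted p = 0.0953, 0.0955, 0.0715, 0.0896 and 0.0529). The Dhcr7 call was also lost with median-of-ratios scaling (0.085, limma adjusted p = 0.227), quantile normalization (0.052, limma adjusted p = 0.466) and no filter (limma adjusted p = 0.0523).

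Stard4, a soluble carrier that moves sterol between membranes, rose with the late enzymes. It had 7.38, 8.99 and 8.99 FPKM in knockout libraries and 5.75, 7.003 and 6.26 FPKM in wild type libraries (0.36 ± 0.089, limma adjusted p = 0.00703). Knockout replicate 1 was the lowest of its group for this gene, as it was for 20 of the 34 genes.

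**Figure D2:**
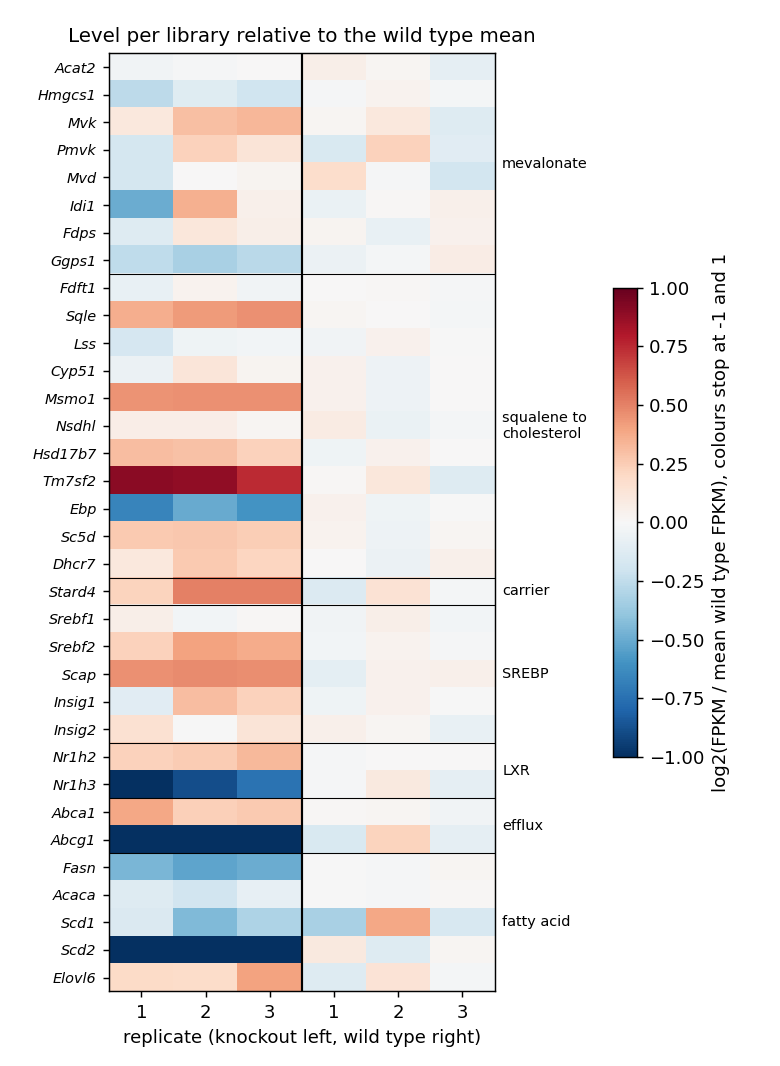
Level of each of the 34 genes (rows) in each library (columns, knockout replicates 1 to 3 left and wild type replicates 1 to 3 right) as log2 of FPKM over the wild type mean, with colours stopping at -1 and 1. Red rows for Sqle, Msmo1, Tm7sf2, Srebf2 and Scap and blue rows for Ebp, Nr1h3, Abcg1, Fasn and Scd2 are alike in all 3 knockout libraries, while Idi1 differs among them.

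The promoters of enzymes that moved in different directions are shown because SREBPs act there together with NF-Y, which binds CCAAT, and Sp1, which binds GC boxes. Sequences are the 250 bases before the annotated start from RefSeq (GRCm38.p6), 5′ to 3′ on the gene's strand, for Hmgcs1 (lower), Msmo1 and Tm7sf2 (higher), and Ebp and Fasn (lower). Capitals mark matches on either strand to the sterol regulatory element pattern TCACNCCAC or to CCAAT, which reads ATTGG on the other strand.
Hmgcs1 promoter, chr13:119690101-119690350, plus strand: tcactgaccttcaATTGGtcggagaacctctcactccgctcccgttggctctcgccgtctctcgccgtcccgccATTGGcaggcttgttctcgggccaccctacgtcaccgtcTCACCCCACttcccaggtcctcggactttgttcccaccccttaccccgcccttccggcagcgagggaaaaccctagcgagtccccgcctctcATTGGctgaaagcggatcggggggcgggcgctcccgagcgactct
Msmo1 promoter, chr8:64733579-64733828, minus strand: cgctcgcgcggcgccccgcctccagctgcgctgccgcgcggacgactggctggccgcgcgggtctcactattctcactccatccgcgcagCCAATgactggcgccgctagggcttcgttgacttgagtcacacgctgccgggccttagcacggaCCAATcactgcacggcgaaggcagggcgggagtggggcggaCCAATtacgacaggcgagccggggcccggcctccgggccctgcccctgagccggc
Tm7sf2 promoter, chr19:6067851-6068100, minus strand: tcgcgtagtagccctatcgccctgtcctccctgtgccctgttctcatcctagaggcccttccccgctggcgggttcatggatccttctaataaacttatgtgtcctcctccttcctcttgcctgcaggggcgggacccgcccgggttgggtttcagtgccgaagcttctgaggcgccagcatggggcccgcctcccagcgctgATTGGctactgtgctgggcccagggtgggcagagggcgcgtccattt
Ebp promoter, chrX:8193513-8193762, minus strand: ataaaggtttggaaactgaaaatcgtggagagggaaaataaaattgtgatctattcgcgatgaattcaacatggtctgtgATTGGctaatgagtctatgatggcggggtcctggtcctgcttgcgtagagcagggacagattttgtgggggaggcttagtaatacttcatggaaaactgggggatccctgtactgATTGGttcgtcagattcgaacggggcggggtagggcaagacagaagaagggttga
Fasn promoter, chr11:120824548-120824797, minus strand: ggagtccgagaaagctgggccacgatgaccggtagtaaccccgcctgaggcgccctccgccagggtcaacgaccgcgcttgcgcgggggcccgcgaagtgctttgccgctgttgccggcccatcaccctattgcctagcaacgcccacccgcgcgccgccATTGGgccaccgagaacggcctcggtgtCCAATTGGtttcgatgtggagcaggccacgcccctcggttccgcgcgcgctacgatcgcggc

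Of the 34 genes, 27 had a promoter in the RefSeq table. The pattern TCACNCCAC, searched on both strands, was found in 1 of them, Hmgcs1, 137 bases before the start, and in 1.22% of all 27025 genes with a promoter. Variants of this pattern were not searched, so a promoter without a match may still hold such an element. CCAAT was found in 20 of the 27 (74.1%), against 37.5% of all genes, and the GC box GGGCGG in 20 of 27 (74.1%), against 35.4%. CACGTG, an E-box that SREBPs can also bind, was found in 6 of 27 (22.2%), against 6.86%. The genes compared were not matched to the members in expression or in number of starts. The LXR element DR4, AGGTCA repeated in the same direction after 4 bases, was found in 0 of 27 and in 0.0148% of all genes. So few genes match this exact pattern that 0 of 27 does not show that LXR elements are absent, and variants were not searched. Msmo1, which rose, had 3 CCAAT matches 160, 96 and 55 bases before the start, and Ebp, which fell, had 2, 170 and 55 bases before it. Tm7sf2 had 1 such match, 47 bases before the start. In Fasn 3 matches lie 90, 62 and 59 bases before the start, and the last pair overlap each other. CCAAT thus occurs in promoters of genes that rose and of genes that fell. These are letter matches in 1 window per start, not measured binding.

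The SREBP regulators held 2 genes that rose, 0 that fell and 3 that were not called, and their median log2 fold change was 0.13. The called share was 40%, against 67.4% of all tested genes. Srebf2, which encodes SREBP-2, had 29.2, 32.8 and 32.1 FPKM in knockout libraries, against 24.4, 25.4 and 24.7 FPKM in wild type. It was 1.26-fold higher, without overlap (0.32 ± 0.048, limma adjusted p = 0.000506). Scap, the escort of SREBPs, had 15.9, 16.1 and 16.1 FPKM in knockout libraries and 10.8, 11.96 and 12.1 FPKM in wild type libraries, 1.38-fold higher (0.43 ± 0.048, limma adjusted p = 8.90e-05). The SD of its knockout values was 0.58% of their mean. A transcript on the opposite strand, 5830462I19Rik, covers 13.2% of its exonic bases.

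Srebf1, the gene of SREBP-1a and SREBP-1c, had 14.05, 13.2 and 13.6 FPKM in knockout and 13.2, 14.1 and 13.3 FPKM in wild type libraries. The groups overlapped (0.013 ± 0.044, 95% interval -0.088 to 0.11). With quantile normalization its estimate was -0.12 and passed (limma adjusted p = 0.0262). Gene level FPKM do not separate its isoforms. The ratio of Srebf2 to Srebf1 was 2.08, 2.48 and 2.36 in knockout libraries and 1.85, 1.81 and 1.86 in wild type libraries. Those groups did not overlap (exact two-sided permutation p = 0.1, adjusted p = 0.114 over 8 ratios). Insig1, an ER anchor of SCAP and itself an SREBP target, had 15.3, 20.6 and 19.5 FPKM in knockout libraries, against 16.2, 17.2 and 16.6 FPKM in wild type. Knockout replicate 1 lay below the wild type range and the other two above it. The gene was not called (0.13 ± 0.096, limma adjusted p = 0.244), but without knockout replicate 1 it passed (0.26, limma adjusted p = 0.00177). Insig2, the second anchor, averaged 5.47 ± 0.309 FPKM in knockout and 5.12 ± 0.221 FPKM in wild type (SD, n = 3) and was not called.

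**Figure D3:**
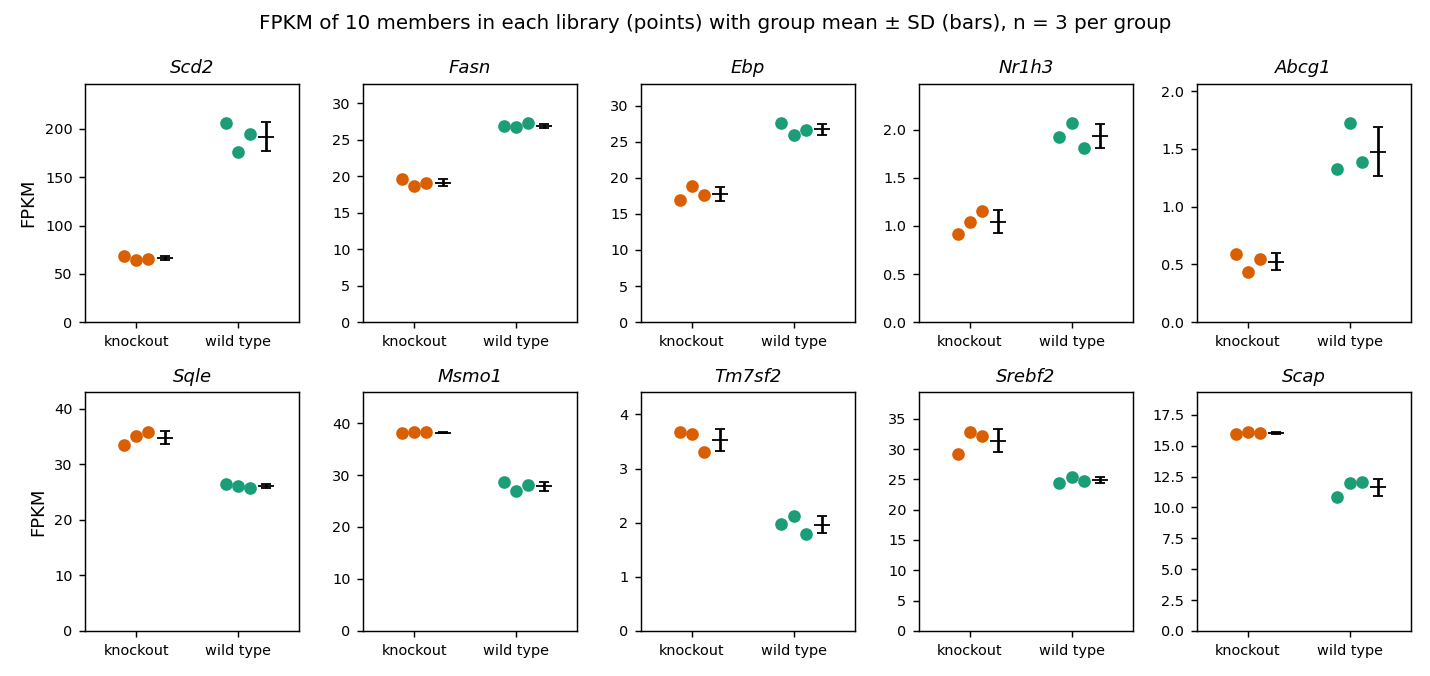
FPKM (y axis, linear from 0) of 10 genes in each library, knockout left and wild type right, with points for libraries and bars for mean ± SD (n = 3 per group). The knockout and wild type points do not overlap in any of the 10 panels, with Scd2 at 64.3 to 68.2 FPKM in knockout and 176 to 206 FPKM in wild type.

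Paired genes of the LXR route moved in opposite directions. Nr1h2, LXR beta, the broadly expressed receptor, had 14.5, 14.8 and 15.5 FPKM in knockout libraries, against 12.3, 12.4 and 12.4 FPKM in wild type (0.25 ± 0.04, limma adjusted p = 0.000785). Nr1h3, LXR alpha, prominent in liver, fat and macrophages, had 0.921, 1.05 and 1.16 FPKM in knockout libraries, against 1.92, 2.07 and 1.82 FPKM in wild type. It fell by 0.52 ± 0.068 on the log2 scale (limma adjusted p = 0.00023). Counted as reads, Nr1h3 had 85, 95 and 105 in knockout and 173, 188 and 166 in wild type libraries. The knockout to wild type ratio, scaled to depth, was 0.538 (exact binomial bounds at 95%, 0.465 and 0.623). Such bounds reflect counting alone.

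Abca1, which loads cholesterol onto lipid-poor apolipoprotein A-I, had 7.31, 6.60 and 6.71 FPKM in knockout and 5.66, 5.69 and 5.47 FPKM in wild type libraries (0.25 ± 0.052, limma adjusted p = 0.003). Abcg1, which passes cholesterol to mature HDL, had 0.588, 0.438 and 0.549 FPKM in knockout and 1.33, 1.72 and 1.38 FPKM in wild type libraries. It was 2.82-fold lower in knockout cells by FPKM (limma adjusted p = 0.000113). On the log2(FPKM + 1) scale this reads as -0.70 ± 0.08, since a pseudocount of 1 is large beside these values, and as -1.34 with a pseudocount of 0.1 and -1.49 by voom on recovered reads. Its reads were 143, 105 and 131 in knockout and 315, 413 and 334 in wild type libraries, a ratio of 0.355 (exact binomial bounds at 95%, 0.315 and 0.40). With any single wild type replicate left out its mean dropped under the filter of 1 FPKM and it was not tested.

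Within libraries, the ratio of Nr1h2 to Nr1h3 was 15.8, 14.1 and 13.4 in knockout and 6.41, 6.00 and 6.86 in wild type libraries, and that of Abca1 to Abcg1 was 12.4, 15.1 and 12.2 in knockout and 4.26, 3.31 and 3.95 in wild type. Each gave an exact two-sided permutation p = 0.1 (adjusted p = 0.114 over 8 ratios). In each pair the genes moved in opposite directions without overlap, so this outcome was fixed by the single genes and adds no support. Macrophages express Nr1h3, Abca1 and Abcg1, and 12 of 14 macrophage markers were higher in the knockout libraries, with Lyz2 at 2085 ± 359 FPKM in knockout and 1195 ± 77 FPKM in wild type (SD, n = 3) and Cd68 at 295 ± 10.4 and 99.8 ± 2.1 FPKM. Their part in the LXR values was not tested.

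**Figure D4:**
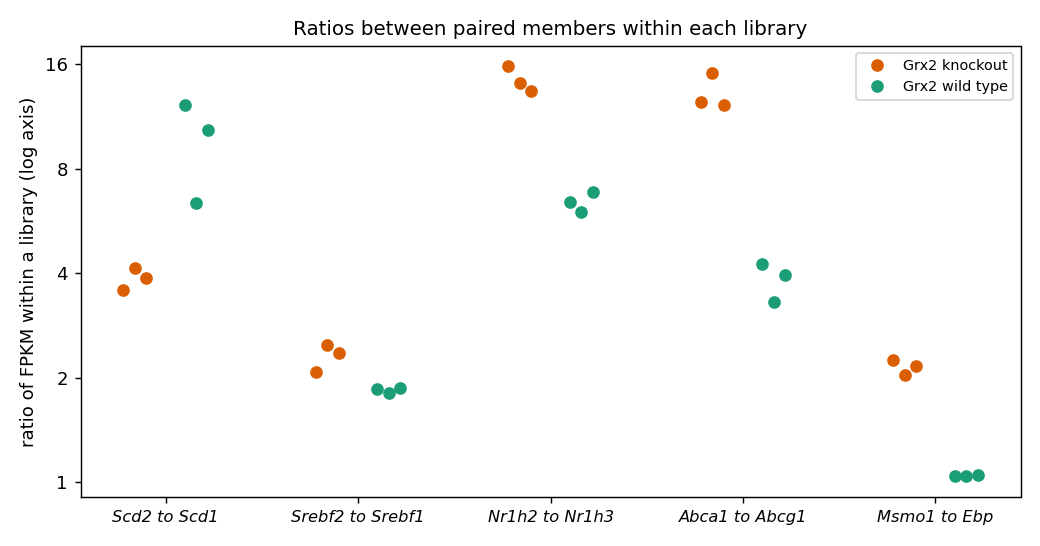
Ratio of FPKM between paired genes within each library (y axis, log scale), knockout left and wild type right of each label, 1 point per library. The ratio of Scd2 to Scd1 lies lower in knockout, and those of Srebf2 to Srebf1, Nr1h2 to Nr1h3, Abca1 to Abcg1 and Msmo1 to Ebp lie higher, with no overlap. For Nr1h2 to Nr1h3, Abca1 to Abcg1 and Msmo1 to Ebp this follows from the single genes, which moved in opposite directions without overlap.

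Fatty acid synthesis held the largest change. Of its 5 genes 1 rose, 3 fell and 1 was not called, so 80% were called, against 67.4% of all tested genes. The median log2 fold change was -0.25 (0 rose and 3 fell with either other scaling). The summed level of the 5 genes was 119, 110.5 and 115 FPKM in knockout, against 261, 243 and 253 FPKM in wild type. Scd2, a stearoyl-CoA desaturase that makes monounsaturated fatty acids and the most abundant of the 34 genes in both genotypes, accounted for most of that gap. It had 68.2, 64.3 and 65.7 FPKM in knockout libraries, against 206, 176 and 195 FPKM in wild type. Knockout cells held 2.91-fold less (-1.52 ± 0.057, limma adjusted p = 2.18e-07), and the change ranked 518 by size among the 11083 tested genes.

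Scd1, the desaturase best known from liver and fat, was not called. It had 19.1, 15.5 and 16.97 FPKM in knockout and 16.8, 27.5 and 18.9 FPKM in wild type libraries, with overlapping groups (-0.25 ± 0.16, 95% interval -0.63 to 0.12). Its highest value was in wild type replicate 2, the library with the highest sums of adipocyte and neutrophil markers (90.4 and 2675 FPKM). Their part in that value was not tested. The ratio of Scd2 to Scd1 was 3.58, 4.14 and 3.87 in knockout and 12.2, 6.39 and 10.3 in wild type libraries (exact two-sided permutation p = 0.1, adjusted p = 0.114 over 8 ratios). Of the 50-base words in GENCODE transcripts of Scd2, 3.97% also occur in another gene, mostly Scd1, so most of its length can be told from its paralogs.

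Fasn, fatty acid synthase, had 19.6, 18.6 and 19.1 FPKM in knockout libraries, against 26.8, 26.7 and 27.2 FPKM in wild type, and was 1.41-fold lower (-0.47 ± 0.035, limma adjusted p = 8.48e-06). The ratio of Scd2 to Fasn was 3.49, 3.45 and 3.45 in knockout and 7.67, 6.59 and 7.16 in wild type libraries, without overlap (exact two-sided permutation p = 0.1, adjusted p = 0.114 over 8 ratios). Acaca, acetyl-CoA carboxylase alpha, which supplies malonyl-CoA, had 7.23, 6.92 and 7.48 FPKM in knockout and 7.90, 7.88 and 7.99 FPKM in wild type libraries (-0.12 ± 0.045, limma adjusted p = 0.0437). Its call was lost whichever single library was left out (limma adjusted p = 0.0514 to 0.126). Elovl6, which lengthens palmitate to stearate, was the member that rose, with 5.11, 5.06 and 5.89 FPKM in knockout and 4.09, 4.90 and 4.41 FPKM in wild type libraries (0.22 ± 0.076, limma adjusted p = 0.0333). This call was lost without knockout replicate 3 or wild type replicate 1 or 3 (limma adjusted p = 0.12, 0.11 and 0.0891). Elovl6 also lost it with median-of-ratios scaling (0.14, limma adjusted p = 0.115), quantile normalization (0.11, limma adjusted p = 0.19) and no filter (limma adjusted p = 0.0808).

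Of 12 listed adipocyte markers, 5 were tested, with 2 higher, 1 lower and 2 not called. Over all 12, 3 were higher and 1 was lower without overlap. The sum of the 12 was 44.3 to 44.9 FPKM in knockout and 45.0, 90.4 and 59.0 FPKM in wild type replicates 1 to 3, so the groups almost touched. Its means were 44.6 FPKM in knockout and 64.8 FPKM in wild type, a smaller gap than that of Fabp4 alone. Fabp4, a fatty acid carrier of fat cells and macrophages, averaged 7.78 ± 0.953 FPKM in knockout and 31.8 ± 17.3 FPKM in wild type, and Cebpa, an adipogenic factor, 21.1 ± 0.868 FPKM in knockout and 16.7 ± 1.2 FPKM in wild type (SD, n = 3). Osteoblast markers, 7 of 7 tested lower, moved in the same direction as Scd2 and Fasn, with Col1a1 at 2164 ± 191 FPKM in knockout and 3757 ± 275 FPKM in wild type. Neutrophil markers (S100a8 at 1.05 FPKM in knockout and 620 FPKM in wild type) and endothelial markers (Cdh5 at 0.0539 and 5.46 FPKM) did so too. Tested markers were lower in 10 of 10 and 5 of 5, against 24.6% of all tested genes. Knockout sums over these lists were at most 8.13 and 1.11 FPKM, so markers passed the filter largely through wild type. These counts therefore add no support. Over all 8 endothelial markers, 7 were lower and 1 was higher without overlap. The part of these cell types in the fatty acid values was not tested.

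Other genes of the pathway, from lists outside the 34, were also mixed. Over all tested genes 67.4% were called, 42.7% higher and 24.6% lower. The lists below had 66.7%, 70.6%, 73.3%, 91.7% and 46.2% of tested genes called, in the order given. For SREBP processing and turnover, 5 of 12 tested genes rose and 3 fell (median 0.081), against 3 and 4 with median-of-ratios scaling and 3 and 5 with quantile normalization. Erlin1, an ER lipid raft protein, averaged 19.1 ± 0.828 FPKM in knockout and 10.7 ± 0.263 FPKM in wild type (0.78 ± 0.044, limma adjusted p = 1.95e-06). Mbtps1, the protease that makes the first cut in SREBPs, rose by 0.25 and Vcp, the ATPase that extracts ER proteins for degradation, by 0.24, while Sec24a, a coat protein of vesicles leaving the ER, fell by 0.45. For acetyl-CoA supply and further fatty acid enzymes, 7 of 17 tested genes of 22 listed rose and 5 fell (median 0.067), against 4 and 6 with median-of-ratios scaling and 3 and 6 with quantile normalization. Acss2, which makes acetyl-CoA from acetate, averaged 3.19 ± 0.121 FPKM in knockout and 1.78 ± 0.179 FPKM in wild type (0.59 ± 0.065), and the elongase Elovl1 and the reductase Hsd17b12 rose by 0.33 and 0.22, while the elongase Elovl4 fell by 0.50.

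For sterol uptake, trafficking and esterification, 7 of 15 tested genes of 16 listed rose and 4 fell (median 0.099), or 5 and 4 with quantile normalization, and their summed level was 878 to 886 FPKM in knockout, against 501 to 519 FPKM in wild type. Lipa, the lysosomal acid lipase that frees cholesterol from its esters, averaged 147 ± 1.0098 FPKM in knockout and 48.0 ± 0.197 FPKM in wild type (1.59 ± 0.027, limma adjusted p = 6.44e-09). Npc2, a lysosomal sterol carrier, averaged 175 ± 3.84 FPKM in knockout and 112 ± 3.15 FPKM in wild type, and Nceh1, a neutral cholesterol ester hydrolase, 28.3 ± 0.769 FPKM in knockout and 11.04 ± 0.427 FPKM in wild type. Cav1, the coat protein of caveolae, averaged 261 ± 10.3 FPKM in knockout and 63.4 ± 8.05 FPKM in wild type. Cav1, Lipa and Npc2 accounted for most of the gap in summed level. The 4 genes that fell were Scarb1 (-0.49), Gramd1a (-0.33), Soat1 (-0.30) and Tmem97 (-0.26). Lipa, Npc2 and Nceh1 are also expressed by macrophages, whose marker sum was higher in the same libraries, and that part was not tested.

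The next list joins LXR targets and oxysterol enzymes with receptor partners and cofactors such as Rxra and Ncor1. Of its 12 tested genes of 16 listed, 6 rose and 5 fell (median 0.067), against 5 and 5 with either other scaling. Lpl, lipoprotein lipase, averaged 206 ± 8.77 FPKM in knockout and 51.8 ± 8.75 FPKM in wild type, and Cyp7b1, an oxysterol hydroxylase, 3.75 ± 0.275 FPKM in knockout and 0.781 ± 0.162 FPKM in wild type. Pltp, the phospholipid transfer protein, and Rxra, a receptor that pairs with LXRs, rose by 0.89 and 0.58. The 5 genes that fell were Smpdl3a (-0.35), Arl4c (-0.29), Ch25h (-0.27), Lpcat3 (-0.18) and Ncor1 (-0.11). For the isoprenoid branches, 5 of 13 tested genes of 14 listed rose and 1 fell (median 0.11), against 3 and 3 with median-of-ratios scaling and 3 and 4 with quantile normalization. Fnta, a shared subunit of protein prenyltransferases, averaged 45.8 ± 2.55 FPKM in knockout and 32.7 ± 0.914 FPKM in wild type (0.47 ± 0.046), Rce1 and Dhdds rose by 0.31 and 0.27, and Rabggtb fell by 0.18.

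Counting limits touch a few members. Of the 50-base words of Acat2 transcripts, 39.1% also occur in Acat3, and 30.4% of those of Acaca and 26.2% of those of Fdps occur in other annotated genes, as do 17.7% of those of Idi1, so reads of these genes may be split. Exons of Fdft1 overlap those of Ctsb on the opposite strand over 774 bases (18.3% of the exonic bases of Fdft1) and those of Tm7sf2 overlap Vps51 on the same strand over 532 bases in GENCODE M21. Whether the counting used strand is not stated. The levels of these 6 genes are therefore uncertain. So are those of Scap and Hmgcs1, where opposite-strand transcripts cover 13.2% and 12.1% of exonic bases. Smaller overlaps occur in other members.

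**Figure D5:**
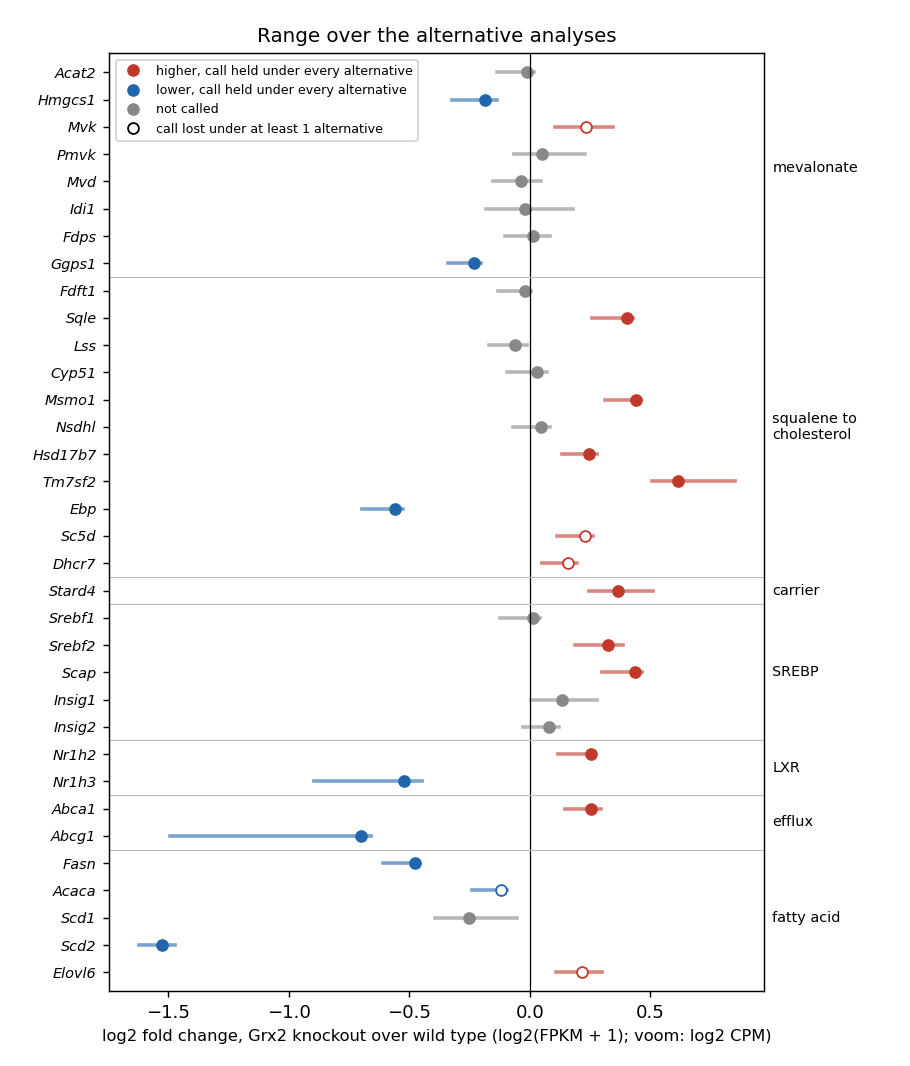
Log2 fold change of each of the 34 genes in the main analysis (points) and its lowest to highest value over up to 16 alternative analyses (bars, x axis), which include a pseudocount of 0.1 and voom, in pathway order (y axis). Open points mark Mvk, Sc5d, Dhcr7, Acaca and Elovl6, whose calls were lost under at least 1 alternative.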

How the data were processed

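The authors deposited FPKM, 1 column per library, for 22984 gene symbols. The submitters' processing notes list the aligner HISAT2, the counter HTSeq, R 3.2.0 and build GRCm39, and per the labels' protocols, total RNA was extracted with TRIzol and libraries made with a VAHTS kit. Which annotation, filters and strand setting were used is not stated. FPKM does not correct for shifts in composition between libraries, and a level compared between genes depends on the annotated length.

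FPKM were used as deposited. Genes with a mean of at least 1 FPKM (11083) were fitted as log2(FPKM + 1) with limma 3.58.1 in R 4.3.3 (lmFit, eBayes with trend), knockout minus wild type, two-sided, Benjamini-Hochberg threshold 0.05. On simulated data (10891 genes) the test recovered 49 of 50 genes changed 1.25-fold, and 16 false calls fell among all unchanged genes. The simulation gave every gene the same spread, changed few genes and had no shift in composition. It therefore does not show the error rate in these data, where 67.4% of tested genes were called. Whole reads were recovered from FPKM steps within 1e-06 reads for 89.7% of genes and 11080 tested genes, as the smallest whole numbers giving a whole gene length, so a gene's true reads can be a multiple of these. They served for depth, low genes and voom, which called 7485 genes, against 7465 in the FPKM fit. The members and lists were chosen with earlier results of these data known. Named genes are all 34 members, up to 4 called genes of smallest p from each other pathway list, Glrx2, and the 2 most abundant genes of a marker list. Where those 4 all rose, the called genes of the list that fell are named too. Promoter sequences are RefSeq's for GRCm38.p6, exon overlaps and 50-base words from GENCODE M21, and figures from matplotlib 3.10.9. Some pathway genes are not analysed here.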

Additional observations from a re-analysis of the deposited data

How the results depend on the processing

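Of the 21 called genes among the 34, 16 kept direction and call under every alternative in which they were tested, up to 16: a pseudocount of 0.1, no filter, a mean of at least 5 FPKM, median-of-ratios scaling, quantile normalization, no trend, robust estimation, the replicate block, each library left out, and, chosen after the data were seen, voom and leaving out knockout replicate 1 with wild type replicate 2. The exceptions were Mvk, Sc5d, Dhcr7, Acaca and Elovl6. Among the 16 kept, Abcg1 was tested in only 11 alternatives. Its knockout mean was 0.525 FPKM, so it passed the filter only through wild type, and its kept call adds no support. With a 2-fold minimum, limma called 1111 genes, among them 1 of the 34 (Scd2, a fatty acid gene). It called 3 of sterol uptake, 2 of the list of LXR targets, oxysterol enzymes and cofactors, and 0 in each of the other role groups and pathway lists. With a mean of at least 5 FPKM, Nr1h3 and Abcg1 were not tested, which left 1 call each among LXR receptors and efflux genes. Leaving out 1 library gave 1 to 2 calls among efflux genes (2 with all libraries) and 2 to 3 among fatty acid genes (4 with all). Without both libraries that stand apart the efflux genes had 1 call, and Insig1 (0.28) and Pmvk (0.23) passed. Quantile normalization also called Acat2 (-0.13), Fdft1 (-0.13) and Lss (-0.17) lower. By voom Nr1h3 was -0.89, against -0.52.

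Sign changes concerned genes that were not called. With median-of-ratios scaling the log2 fold change was -0.0142 for Pmvk, -0.0747 for Fdps, -0.0595 for Cyp51, -0.0357 for Nsdhl and -0.0715 for Srebf1. With quantile normalization the log2 fold change was -0.0646 for Pmvk, -0.104 for Fdps, -0.0963 for Cyp51, -0.0703 for Nsdhl, -0.125 for Srebf1 and -0.0275 for Insig2. Without both libraries that stand apart the log2 fold change was 0.00848 for Acat2, 0.0163 for Mvd, 0.18 for Idi1 and 0.00375 for Fdft1. With 1 library left out at a time it ranged from -0.0508 to 0.0171 for Acat2, -0.0118 to 0.14 for Pmvk, -0.112 to 0.0446 for Mvd, -0.184 to 0.174 for Idi1, -0.0344 to 0.0836 for Fdps, -0.0453 to 0.000136 for Fdft1, -0.0169 to 0.0712 for Cyp51 and -0.00716 to 0.0409 for Srebf1. The cause was not tested.

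Replicate numbers are shared by the groups, but same-numbered libraries deviated together only weakly (correlations 0.107, 0.124 and 0.0199 over tested genes), so they were not treated as pairs. With the replicate block 20 of the 34 were called, against 21, and Acaca was lost (limma adjusted p = 0.0615). Counts were lowest for Tm7sf2 (110 to 227 reads per library), Nr1h3 (85 to 188) and Abcg1 (105 to 413), where counting error weighs most.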
